A study of Danio rerio with 28 samples.

Results

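The genes described here encode subunits of the mitochondrial oxidative phosphorylation complexes and the assembly factors and inhibitors that carry the same names. They were chosen by symbol: names starting with nduf, the sdha to sdhd names, uqcr, cox4 to cox8, and atp5. In all, 92 of the 15419 rows of the second experiment's count table were members, and 91 of them were found in the first experiment's table, in 97 of its 16134 rows. By complex, 36 members belong to complex I, 5 are complex I assembly factors, 5 belong to complex II, 8 to complex III, 19 to complex IV and 19 to complex V. The genes ndufa4 and ndufa4l are named for complex I but were placed in complex IV, where the mammalian protein is found.

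The oxidative phosphorylation complexes sit in the inner mitochondrial membrane. Complexes I and II pass electrons from NADH and succinate to ubiquinone, complex III passes them to cytochrome c, and complex IV passes them to oxygen, while complex V uses the resulting proton gradient to make ATP. Complex II is also an enzyme of the tricarboxylic acid cycle, and most subunits of the other complexes are encoded in the nucleus, with the core subunits of complexes I, III, IV and V partly encoded by mitochondrial DNA.

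RNA was sequenced from pooled guts of zebrafish larvae at 7 days post-fertilization, wild type or carrying a homozygous loss of il22, the gene of the cytokine interleukin-22. In experiment 1, wild type and il22-/- larvae were compared without a stated housing. Experiment 2 held conventionally raised and germ-free (axenic) wild type, conventional and germ-free il22-/-, and co-housed il22-/- larvae; what the last were housed with is not given in the labels. Each of the 7 groups had 4 libraries, each a pool of 10 to 15 guts, so a p-value covers the spread between pools. A bulk gut library does not separate fewer cells of a type from less RNA per cell. Library totals ranged from 30241961 to 37953666 counts in experiment 1 and from 22263733 to 30997846 in experiment 2, and all 10 enterocyte markers checked for the gut label had counts in both tables. The il22 gene itself averaged 0.906 ± 0.784 CPM (SD, n = 4) in the knockout against 7.50 ± 4.35 CPM in wild type of experiment 1 (two-sided exact permutation p = 0.0286). In conventional larvae of experiment 2 it averaged 0.177 ± 0.119 and 0.360 ± 0.325 CPM, with an exact permutation p of 0.4.

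Unless a sentence says TPM, levels are in CPM (counts scaled to the TMM-adjusted library total), and changes are log2 fold changes with a standard error. A change passed the test at a Benjamini-Hochberg adjusted p under 0.05 by edgeR's quasi-likelihood test. The 12 members with at most 6 counts in any library of experiment 2 (ndufa1, ndufa12, ndufa4, ndufa8, ndufb4, ndufb5, ndufb9, ndufs4, ndufs8b, cox7a2l, atp5if1b and sdhda) were not tested there, and their counts are not read as absence of expression. The other 80 were tested in experiment 2. In experiment 1, 75 were tested.

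Averaged over experiment 2 and compared per length (TPM), the most abundant members were complex V genes: atp5mc3b, a c-ring subunit, averaged 1858 TPM and atp5f1b, the catalytic beta subunit, 1103 TPM. The highest of the other members were cox4i1 in complex IV (642.8 TPM), uqcrc2a in complex III (326.6 TPM), sdhb in complex II (290.5 TPM) and ndufa6 in complex I (236.7 TPM). The complex IV gene cox5ba, not a member because it carries a clone name, had group means of 629 to 768 TPM. Those of cox4i1 were 590 to 693 TPM. The complex I assembly factors were lower, led by ndufaf3 at 72.34 TPM. Together the 92 genes held 1.82 ± 0.10% of TPM (mean ± SD, n = 4) in wild type raised conventionally and 1.53 ± 0.09% in wild type raised germ-free. In the knockout they held 1.94 ± 0.12% when conventional, 1.68 ± 0.14% when germ-free and 1.73 ± 0.14% when co-housed. TPM values are not TMM-adjusted. In conventional and germ-free wild type atp5mc3b averaged 1844 and 1722 TPM, but 1138 and 1133 CPM. The part of this scaling in the differences of TPM shares and sums was not tested.

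**Figure D1:**
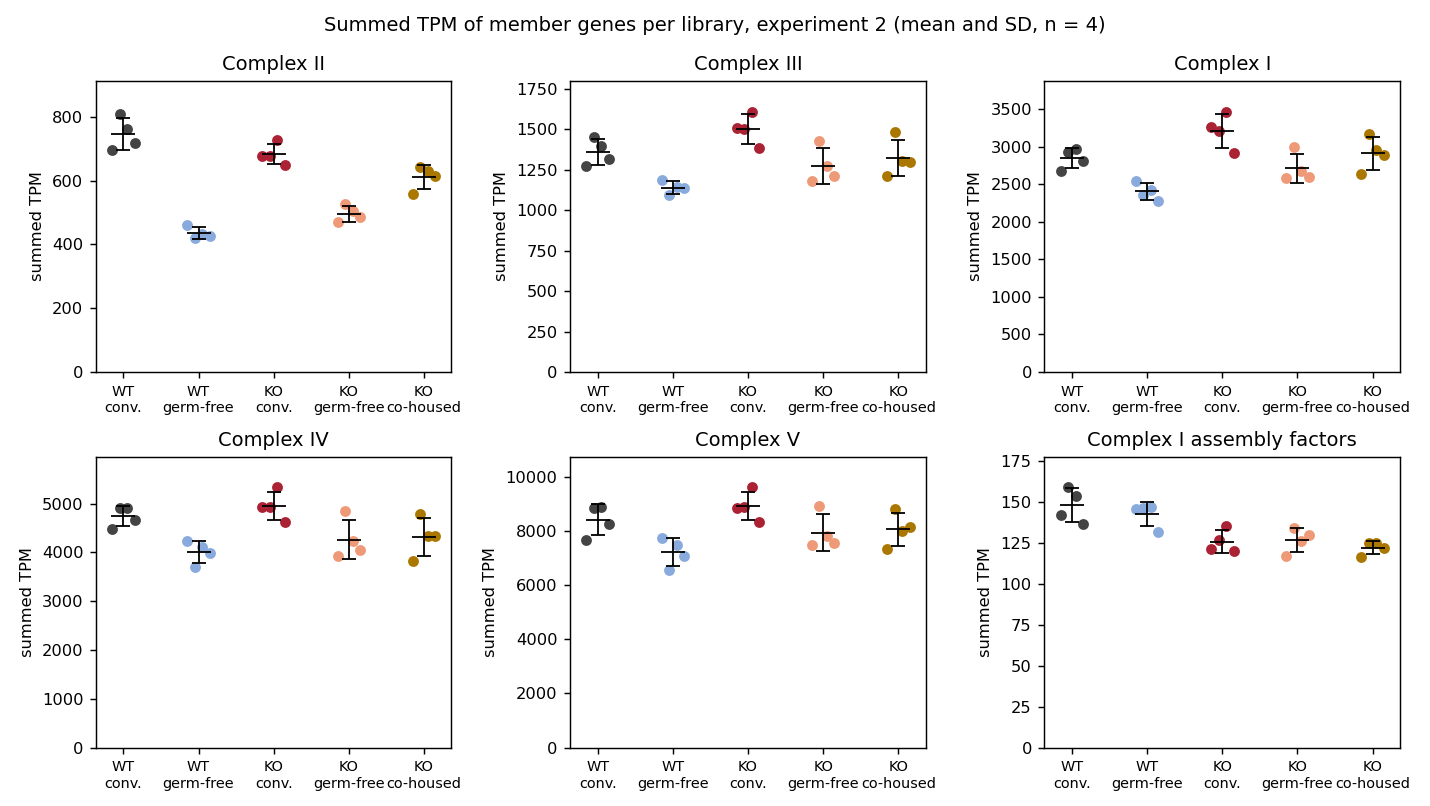
Summed TPM of the member genes of each complex in every library of experiment 2 (points), with the group mean and SD (n = 4) as bar and whiskers; the vertical axes start at 0. In complex II the conventional and germ-free libraries stand apart in both genotypes, with means going from 746.1 to 435.2 in wild type and from 682.6 to 496.4 in the knockout.

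Germ-free rearing went with lower levels of members of complexes I to V. In wild type 24 of the 80 tested members were lower and 2 were higher in germ-free than in conventional larvae, when 13.2% of all tested genes were lower and 12.1% higher; the median change was -0.16 for the members and -0.002 for all genes. In the knockout 41 members were lower and 0 higher, against 13.3% and 14.0% of all genes, and the median change was -0.20 against 0.012; 2 members were higher at an unadjusted p under 0.05, and DESeq2 also called 0 higher. Of the members, 23 were lower in both genotypes, which is 95.8% of those in wild type and 56.1% of those in the knockout. The 2 comparisons share no library. Genes called in both were counted among members only, so no all-gene share stands beside these numbers. The libraries of the groups did not overlap, with germ-free lower, for 19 members in wild type (7.94% of all genes) and for 41 in the knockout (16.2%). With germ-free higher, 1 member in each genotype did not overlap, against 9.16% and 17.4% of all genes.

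The lower members are counted by complex, and differences between complexes were not tested. In complex II, 3 of 4 tested members fell in each genotype, in complex III 5 of 8 and 6 of 8, in complex IV 7 and 8 of 17, in complex V 4 and 8 of 18, and in complex I 5 and 16 of 28, wild type first. None of the 5 complex I assembly factors passed the test in either genotype (at an unadjusted p under 0.05, 1 was higher in wild type and 2 in the knockout). Summed complex II TPM in wild type ran from 696.5 to 809.3 under conventional and from 420.7 to 461.1 under germ-free rearing, and from 649.9 to 726.1 against 469.3 to 527.4 in the knockout. In the sums of complexes I, III and IV the wild type groups did not overlap either, whereas germ-free knockout library 2 (4850 TPM in complex IV) reached into the range of the conventional knockout.

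The iron-sulfur subunit of complex II, sdhb, had the largest fall of any called member in wild type. In wild type it measured 312, 365, 327 and 323 CPM when conventional and 192, 158, 166 and 169 CPM when germ-free. In the knockout it measured 292, 305, 300 and 294 CPM when conventional and 220, 213, 195 and 202 CPM when germ-free. All 4 germ-free libraries were below all 4 conventional ones in both genotypes. The change was -0.95 ± 0.06 in wild type (adjusted p = 2.54e-08) and -0.52 ± 0.06 in the knockout (adjusted p = 2.9e-05). The difference between them, 0.43 ± 0.09 (adjusted p = 0.0324), was the only member called for the interaction, where 0.329% of all genes were called in that direction and 0.116% in the other; 3 members were lower at an unadjusted p under 0.05. That call was lost without a count filter (adjusted p = 0.0603), with pancreas and liver covariates (adjusted p = 0.138), without the 3 libraries that hold muscle transcripts (adjusted p = 0.0842) and in 12 of 16 fits that left out 1 library, with the difference at 0.37 to 0.49. The catalytic flavoprotein sdha changed by -0.49 ± 0.07 in wild type and -0.35 ± 0.07 in the knockout, and the membrane anchor sdhdb by -0.25 ± 0.06 and -0.29 ± 0.06; all 4 of these changes passed the test.

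The complex I gene with the widest germ-free fall was ndufv1, which carries the NADH-oxidising flavin. Wild type levels were 298, 352, 321 and 304 CPM under conventional and 226, 188, 203 and 213 CPM under germ-free rearing. In the knockout they were 326, 321, 334 and 320 CPM against 221, 225, 215 and 216 CPM. The groups did not overlap in either genotype, and the changes were -0.62 ± 0.07 (adjusted p = 2.04e-05) and -0.57 ± 0.07 (adjusted p = 3.29e-05). In complex III the Rieske iron-sulfur protein gene uqcrfs1 fell by 0.51 ± 0.10 in wild type and by 0.48 ± 0.10 in the knockout, and among the c-ring genes of complex V atp5mc1 fell by 0.42 ± 0.11 and 0.60 ± 0.11. The c-ring gene atp5mc3a was also called lower in both. Its means went from 99.1 to 74.4 CPM in wild type and from 106.1 to 86.2 CPM in the knockout. The abundant paralog atp5mc3b changed by -0.01 ± 0.08 and 0.00 ± 0.08, both without passing the test.

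**Figure D2:**
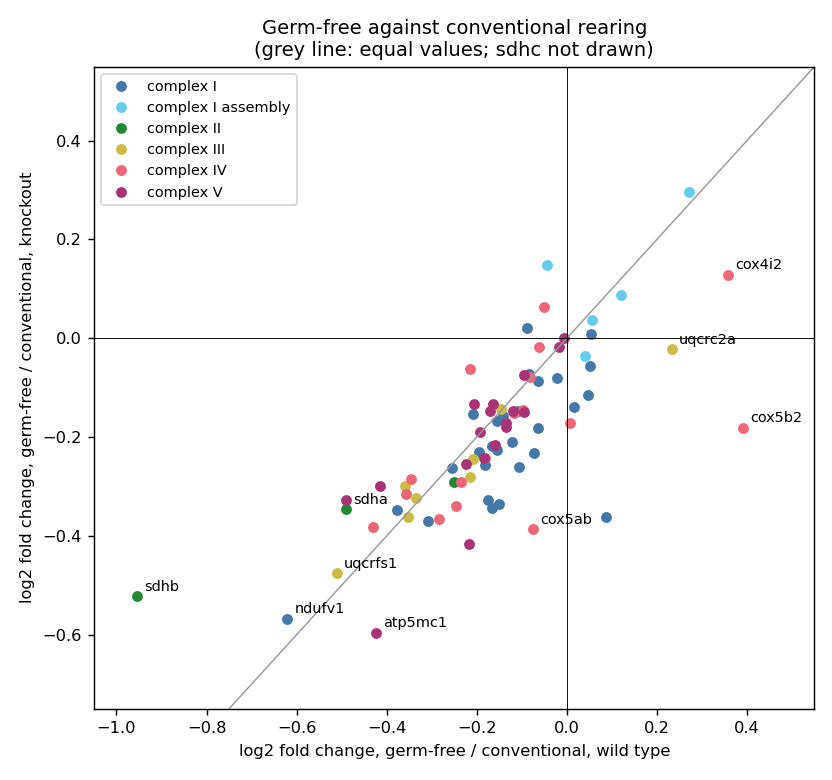
Change of each tested member between germ-free and conventional larvae, in wild type (horizontal) and in the knockout (vertical), as log2 fold changes; each point is 1 gene, coloured by complex, and the grey line marks equal values. The points for sdhb (-0.95 and -0.52), ndufv1 (-0.62 and -0.57) and atp5mc1 (-0.42 and -0.60) lie among the farthest toward lower germ-free levels; sdhc, which has few counts in wild type, is not drawn.

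The 2 members that were higher in germ-free wild type lie in complexes III and IV. The core complex III gene uqcrc2a rose by 0.23 ± 0.08 in wild type (adjusted p = 0.0477) and changed by -0.02 ± 0.08 in the knockout. The cytochrome c oxidase subunit gene cox4i2, whose mammalian counterpart is tied to low oxygen, rose by 0.36 ± 0.13 in wild type (adjusted p = 0.0428), from 8.76, 7.28, 7.07 and 10.8 CPM to 9.22, 10.1, 11.8 and 12.4 CPM. The groups overlap for cox4i2, and neither gene was called when the 3 libraries with muscle transcripts were left out, when the 2 groups were fitted alone, or on the TPM scale. The main isoform cox4i1, which held 38.6 times the TPM of cox4i2, changed by -0.08 ± 0.06 in both genotypes.

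Markers of other cell types moved with germ-free rearing. Summed levels of the 10 enterocyte markers were 13880 to 16530 CPM in germ-free and 15820 to 21430 CPM in conventional wild type, where the groups overlap. In the knockout they were 14180 to 14710 against 17950 to 18630 CPM. Of these markers, 4 were lower and 1 higher in wild type, and 6 lower and 2 higher in the knockout. Of the 4 smooth muscle markers with counts, 2 were lower in each genotype, with sums of 2062 to 2647 against 2692 to 3884 CPM in wild type and 2091 to 2534 against 2607 to 3181 CPM in the knockout. Exocrine pancreas markers summed to 41420 to 73060 CPM in germ-free and 25520 to 49770 CPM in conventional wild type (2 of 12 higher, 0 lower). In the knockout they summed to 25220 to 74810 against 27130 to 54920 CPM (0 of 12 called). The groups overlap in both genotypes. Both goblet cell markers tested were lower in each genotype, with sums of 103.1 to 137.6 against 154.2 to 229.6 CPM in wild type and 158.7 to 204.0 against 242.8 to 268.6 CPM in the knockout. Lysosome-rich enterocyte markers summed to 2304 to 4217 CPM in germ-free and 3887 to 4870 CPM in conventional wild type (2 of 4 lower). In the knockout they summed to 4154 to 6211 against 5081 to 6512 CPM. For these markers the groups overlap in both genotypes. The part of the enterocyte, goblet, lysosome-rich enterocyte and smooth muscle levels in the member changes was not tested. Liver markers summed to 14180 to 19000 CPM in germ-free and 15390 to 26670 CPM in conventional wild type (1 of 12 lower). The liver score, a mean of log2 CPM, was 0.94 to 3.80 in germ-free and 3.61 to 4.97 in conventional wild type. In the knockout it was 1.20 to 4.05 against 0.84 to 5.18. The liver score thus moved with rearing in wild type, and their separate parts in the next count were not tested. With pancreas and liver scores as covariates, 4 members were called in wild type, all lower (sdhb, sdha, ndufv1 and atp5mea). With the same covariates 38 were lower in the knockout. With the 2 groups fitted alone, 12 were called in wild type and 48 in the knockout. All-gene shares in these fits are not given, so whether the shifts were particular to the members was not tested.

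Members differed between knockout and wild type in both directions, and more of them were higher than lower in the knockout. Whether loss of il22 or another difference between the knockout and wild type larvae underlies this was not tested. Called higher were 20 of 75 members in experiment 1, 23 of 80 in conventional larvae and 17 of 80 in germ-free larvae. All-gene shares called higher were 16.1%, 17.0% and 13.5%. Called lower were 2, 9 and 6 members, against 17.0%, 19.1% and 13.3% of all genes. The median member change was 0.15, 0.08 and 0.03, against -0.011, -0.023 and -0.004 for all genes. The 9 genes called higher in all 3 comparisons were sdhc, cox7a1, cox6c, ndufaf2, ndufab1a, ndufb10, ndufb7, ndufv2 and atp5md; the sole gene called lower in all 3 was ndufb3. The conventional and germ-free comparisons, which share no library, had 14 higher members in common (60.9% and 82.4% of each list) and 6 lower ones (66.7% and 100.0%). Genes called in several comparisons were counted among members only, so these numbers and the 9 above have no all-gene share beside them. In experiment 1 the count of both directions together, 22, depended on single libraries: it was 11, 13 and 11 without wild type 2, 3 and 4, 12 without knockout 2 and 31 without wild type 1. This count was 10 on log2(TPM + 1) and 11 with pancreas and liver covariates, with no all-gene share given for these fits. For germ-free larvae the TPM scale gave 19 higher and 3 lower members, against 17 and 6 by counts. Markers of lysosome-rich enterocytes also differed between the genotypes: their summed levels were 3544 to 6853 CPM in the knockout and 1352 to 1777 CPM in wild type of experiment 1 (3 of 3 higher). The sums were 5081 to 6512 against 3887 to 4870 CPM in conventional larvae (2 of 4 higher) and 4154 to 6211 against 2304 to 4217 CPM in germ-free larvae (4 of 4 higher). The sums of the germ-free groups overlap. Liver markers summed to 12660 to 14550 CPM in the conventional knockout and 15390 to 26670 CPM in conventional wild type (1 of 12 higher, 2 lower). Knockout and wild type sums overlapped in experiment 1 (12640 to 22600 against 12540 to 22360 CPM) and in germ-free larvae (12060 to 15950 against 14180 to 19000 CPM). The liver score used as covariate, a mean of log2 CPM, overlapped in conventional larvae, at 0.84 to 5.18 in the knockout and 3.61 to 4.97 in wild type. Goblet cell markers summed to 140.9 to 181.6 CPM in the knockout and 188.9 to 241.2 CPM in wild type of experiment 1 (1 of 2 lower). They went the other way in conventional larvae, at 242.8 to 268.6 against 154.2 to 229.6 CPM (1 of 2 higher). In germ-free larvae they summed to 158.7 to 204.0 against 103.1 to 137.6 CPM (1 of 2 higher). Of 10 enterocyte markers, 1, 5 and 3 were higher and 3, 4 and 3 lower in the 3 comparisons. The part of these marker levels in the knockout changes of the members was not tested, apart from the liver covariate above.

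**Figure D3:**
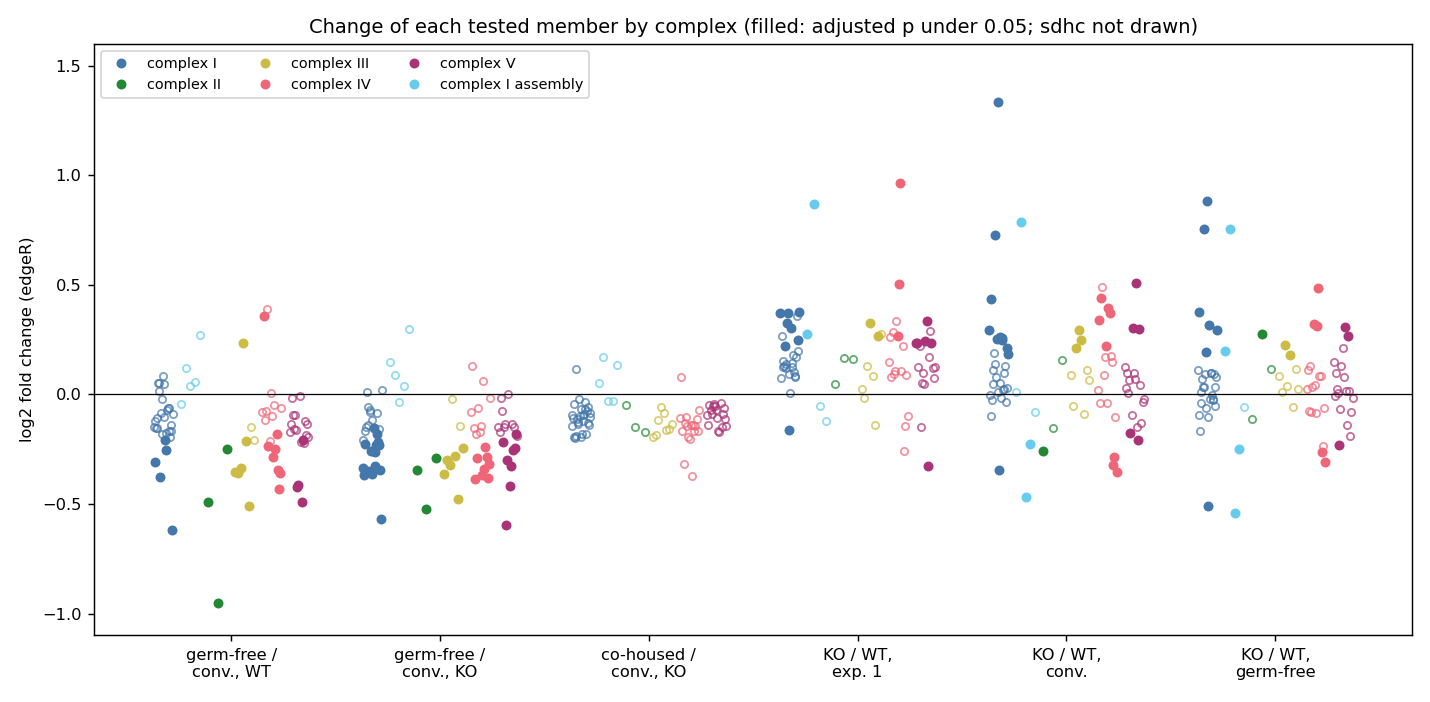
Log2 fold change of each tested member in 6 comparisons, coloured by complex, with filled points for an adjusted p under 0.05 (edgeR); sdhc is not drawn. Filled points in the germ-free comparisons lie below 0 with 2 exceptions in wild type, the co-housed comparison has 0 filled points, and the knockout comparisons hold filled points on both sides.

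The largest knockout change belonged to sdhc, a membrane anchor of complex II. In the conventional and germ-free comparisons it averaged under 5 CPM in every group and is described there because its values had been seen. Counts were 3, 7, 4 and 11 in wild type and 333, 467, 236 and 149 in the knockout of experiment 1. Conventional larvae gave 7, 2, 1 and 2 counts in wild type and 65, 113, 109 and 172 in the knockout. Germ-free larvae gave 1, 0, 1 and 0 counts against 2, 53, 14 and 145. Knockout libraries were above wild type libraries in every comparison, although germ-free knockout 1 held no more than 2 counts. Summed over the libraries, the knockout held 51.1 times the wild type level in experiment 1 (95% counting interval 34.5 to 79.3) and 43.2 times (24.5 to 84.1) in conventional larvae. In germ-free larvae the ratio rested on 2 wild type counts and was 115.2 (31.5 to 957.3). These intervals cover counting error only. The few wild type counts of sdhc are not read as absence of expression, and whether reads were lost in counting there was not tested. The fitted changes were 5.70 ± 0.46 (adjusted p = 4.48e-05), 5.35 ± 0.91 (adjusted p = 0.000201) and 6.46 ± 1.19 (adjusted p = 0.000553). Per length the gene stayed low, and sdhb held 200.6 times its mean TPM in experiment 2. The other tested complex II members changed far less. The gene sdha was lower in the conventional knockout (-0.26 ± 0.07) and sdhb higher in the germ-free knockout (0.28 ± 0.06). The gene sdhdb passed in none of the 3 comparisons. In experiment 1 all 4 tested complex II members had positive changes, and sdhc was the only one called.

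**Figure D4:**
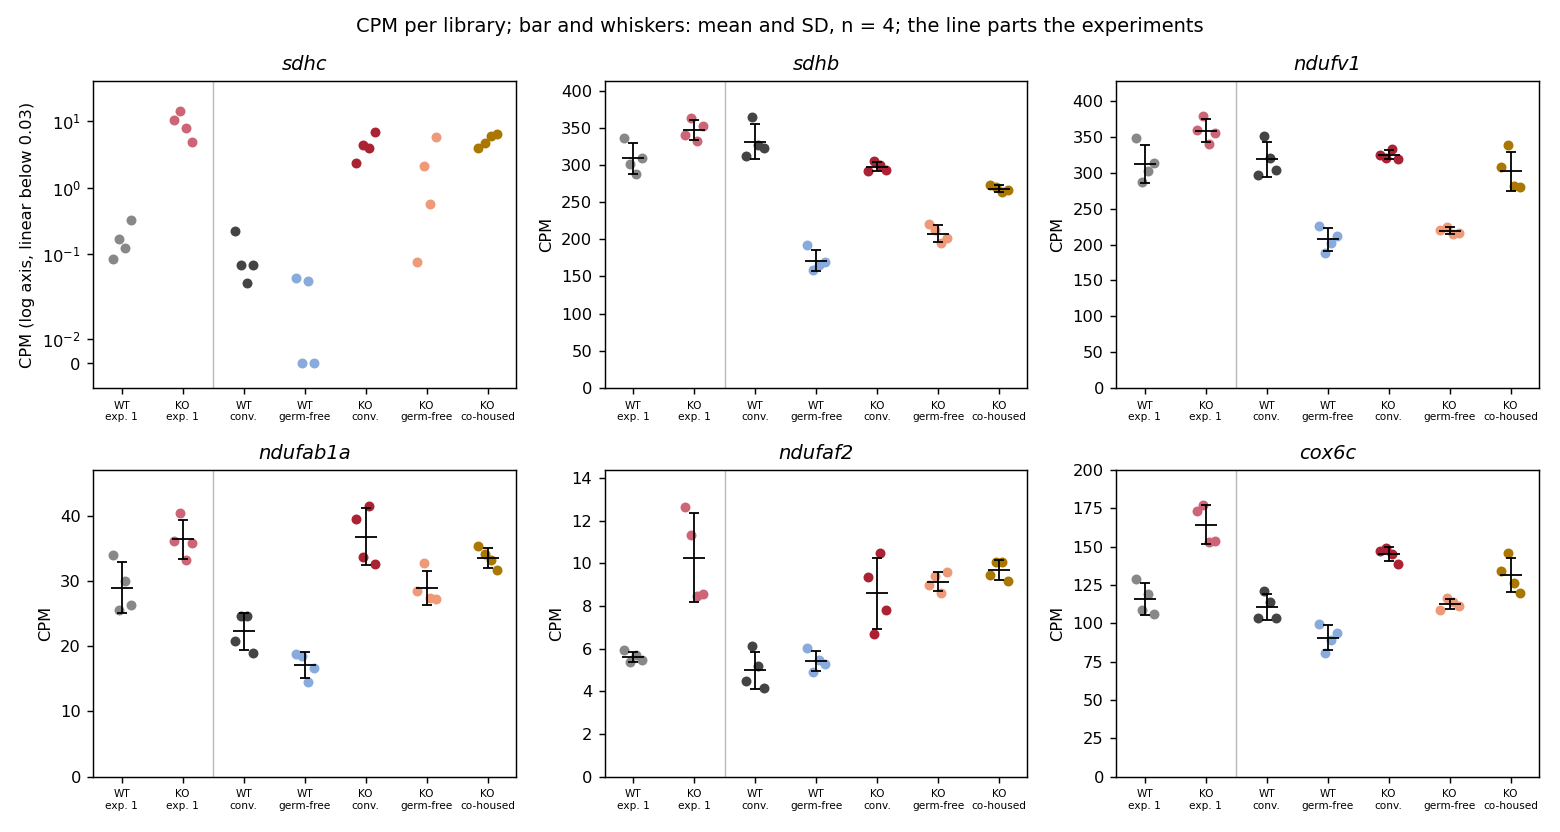
CPM of 6 members in each library of the 7 groups (points), with mean and SD (n = 4) as bar and whiskers except for sdhc, whose axis is logarithmic and linear below 0.03; a grey line parts the experiments. Within each comparison knockout libraries stand above wild type for sdhc, ndufaf2 and cox6c; for ndufab1a they do so in experiment 2 and overlap in experiment 1 (wild type 1 at 34.0 CPM, knockout 3 at 33.2 CPM). Germ-free libraries stand below conventional ones of the same genotype for sdhb and ndufv1.

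In complex I, ndufb2, an accessory subunit of the membrane arm, measured 14.1, 19.3, 13.2 and 17.4 CPM in conventional wild type and 43.4, 39.5, 43.0 and 35.7 CPM in the conventional knockout. The groups did not overlap, and the change was 1.33 ± 0.11 (adjusted p = 4.35e-08); in germ-free larvae it was 0.89 ± 0.11. The annotation places ndufb2 over kmt2e and kdm7aa, and the strand setting of the counting is not given in the sources used here, so reads of those genes cannot be told apart from its own. The mitochondrial acyl carrier protein gene ndufab1a rose from 20.7, 24.7, 24.6 and 19.0 CPM to 39.5, 33.6, 41.5 and 32.7 CPM in conventional larvae (0.73 ± 0.10, adjusted p = 2.55e-05), by 0.76 ± 0.10 in germ-free larvae and by 0.33 ± 0.10 in experiment 1. Its copy ndufab1b changed by 0.08 ± 0.07 and 0.09 ± 0.07 in conventional and germ-free larvae, which did not pass. The assembly factor ndufaf2 was higher by 0.87 ± 0.14, 0.79 ± 0.13 and 0.76 ± 0.13 in experiment 1, conventional and germ-free larvae, with the libraries separate in each. The assembly factor ndufaf3 fell by 0.47 ± 0.08 and 0.54 ± 0.08 in the conventional and germ-free knockout, and ndufb3 by 0.16 ± 0.05, 0.34 ± 0.07 and 0.51 ± 0.07 in the 3 comparisons. The annotation has ndufb3 overlapping ybey. In all, 24 members overlap another gene there, among them ndufb7, ndufb10, ndufv2 and sdhdb, and the same limit holds for them.

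In complex IV, cox7a1, a muscle isoform in mammals, measured 32.1, 32.6, 29.3 and 28.9 CPM in wild type and 60.4, 66.1, 57.3 and 56.1 CPM in the knockout of experiment 1. The change was 0.96 ± 0.07 (adjusted p = 2.26e-05), with no overlap; it was 0.37 ± 0.12 in conventional and 0.49 ± 0.12 in germ-free larvae of experiment 2. Its annotated neighbour rnaset2l overlaps it. The alternative isoform cox7a2a changed by 0.11 ± 0.12, 0.17 ± 0.08 and 0.08 ± 0.08, none of which passed. The second muscle-type gene, cox6a2, passed in germ-free larvae only (0.32 ± 0.09, adjusted p = 0.0116; the difference to the conventional comparison, 0.15 ± 0.13, did not pass), and cox8a was lower in the conventional knockout (-0.28 ± 0.10). The accessory subunit gene cox6c was higher by 0.51 ± 0.09, 0.39 ± 0.07 and 0.31 ± 0.07, while cox7c was lower in experiment 2 (-0.32 ± 0.08 and -0.26 ± 0.08). The ndufa4l gene fell by 0.35 ± 0.07 and 0.31 ± 0.07 in conventional and germ-free larvae. Skeletal muscle markers were high in 3 libraries (up to 1102 CPM in wild type raised conventionally, 748.9 CPM in wild type raised germ-free and 366.3 CPM in the co-housed knockout), with ckma, mylpfa and tnnc2 at 0 counts in every library of experiment 2. Without these 3 libraries the cox7a1 change in germ-free larvae was 0.36 (adjusted p = 0.013).

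**Figure D5:**
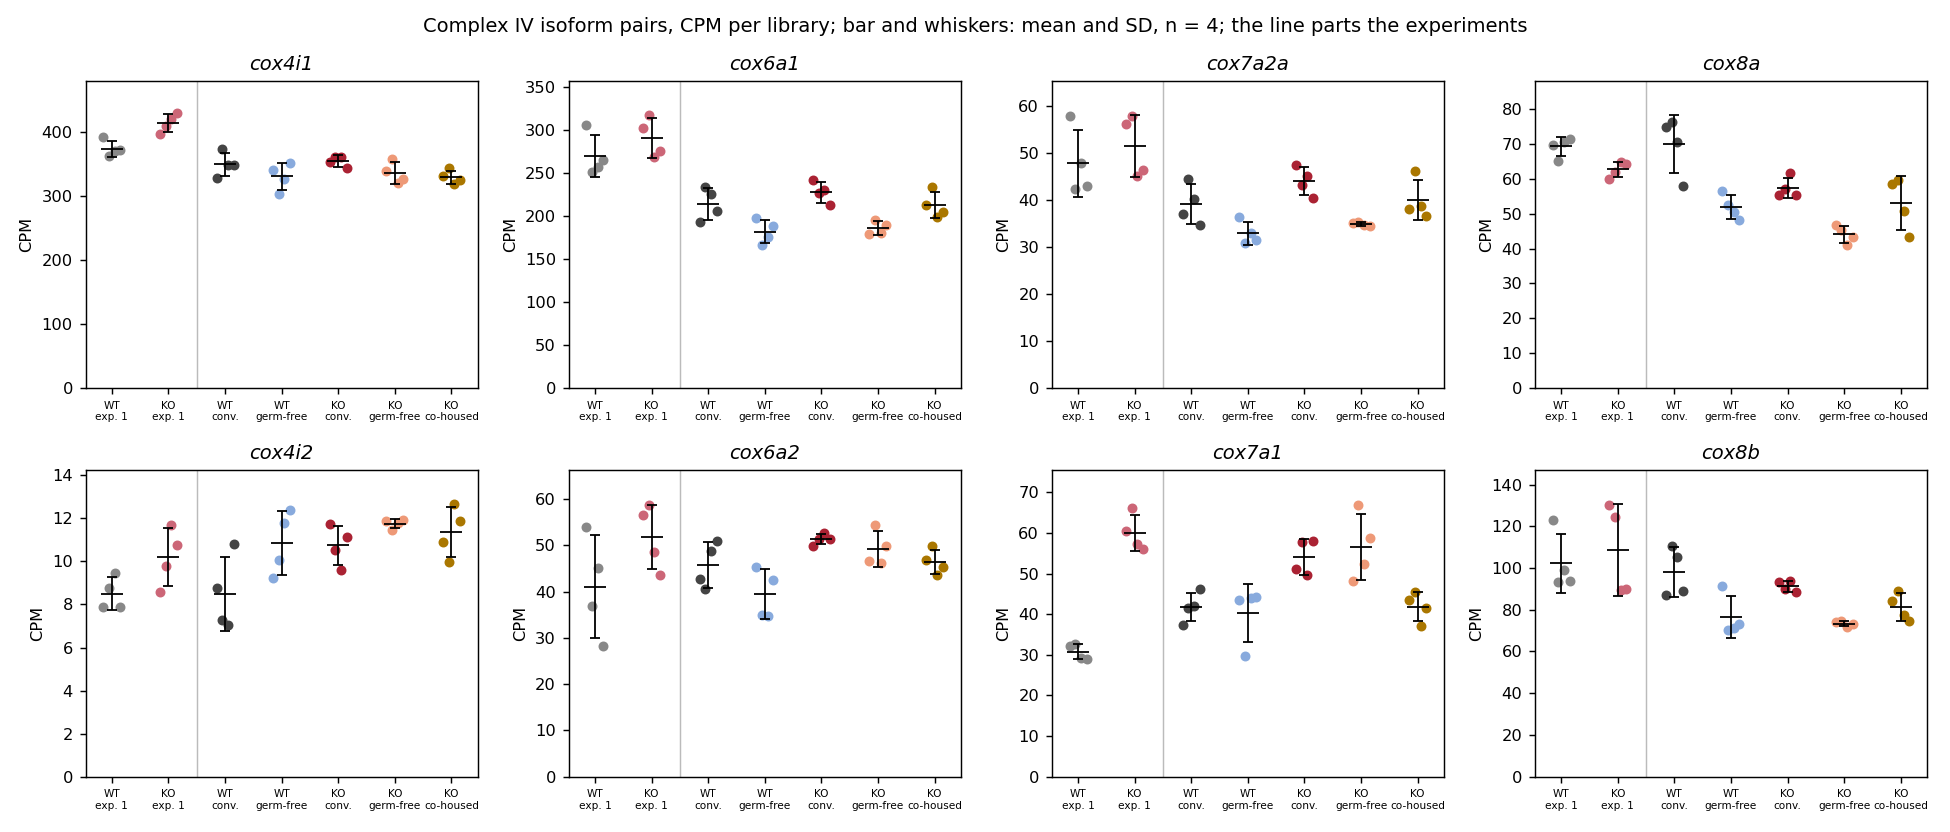
CPM of 4 isoform pairs of complex IV in each library (points) with the mean and SD (n = 4); the grey line parts the experiments and the vertical axes start at 0. The cox7a1 panel shows wild type of experiment 1 at 28.9 to 32.6 CPM and its knockout at 56.1 to 66.1 CPM, and the cox4i2 panel lies far below cox4i1.

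In complex V, atp5md, a small membrane subunit, was higher in the 3 comparisons by 0.34 ± 0.09, 0.51 ± 0.09 and 0.31 ± 0.09, and the inhibitor gene atp5if1a was lower in experiment 2 (-0.18 ± 0.07 and -0.23 ± 0.07). The beta subunit atp5f1b passed in experiment 1 only (0.23 ± 0.08, adjusted p = 0.0466), and the difference to conventional larvae of experiment 2, 0.10 ± 0.11, did not pass. In experiment 1 a gene held by several transcript rows was often left with no counts: of genes with a mean of at least 100 counts in experiment 2, 226 of 379 with several rows were under 10 counts there, against 11 of 7535 with 1 row. Among the members this touched atp5f1c, cox6b2, ndufab1b and ndufb2, which averaged 10556, 4606, 860.5 and 723.8 counts in experiment 2, so their experiment 1 levels are not read. The knockout effect was higher in experiment 1 than in conventional larvae of experiment 2 for cox7a1, atp5meb and sdhb. The test also called atp5f1c, which is not read because it rests on at most 11 counts per library in experiment 1. Of all genes, 4.85% had a knockout effect called higher in experiment 1 and 5.07% had one called lower. With atp5f1c the count was 4; it was 1 with pancreas and liver covariates, 2 without wild type 2, 3 or 4 or knockout 4 of experiment 1, and 1 without its knockout 2.

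Co-housing of the knockout left 0 members called against the conventional knockout by edgeR, where 1.5% of all genes were higher and 1.09% lower. By DESeq2, 1 member was called, cox5ab, an isoform of a complex IV subunit (-0.32 ± 0.09, adjusted p = 0.0138). At an unadjusted p under 0.05, 17 were lower and 0 higher, and 74 of 80 changes were negative, with a median of -0.11 against 0.002 for all genes. All-gene shares at this unadjusted threshold and of negative changes are not given. These counts alone therefore do not show a shift particular to the members. The groups did not overlap for 11 members, all lower (6.4% of all genes were lower and 6.23% higher without overlap). Leaving out co-housed knockout 2, which held muscle transcripts, gave 3 called members (cox5ab, ndufb6 and sdhdb), all lower, and leaving out the 3 libraries with muscle transcripts gave 4. Enterocyte markers summed to 15970 to 18560 CPM in the co-housed and 17950 to 18630 CPM in the conventional knockout, and their part in these values was not tested. Against conventional wild type, the co-housed knockout had 13 members higher and 16 lower, against 16.1% and 17.1% of all genes; fitted alone, these 2 groups gave 5 higher and 12 lower, and without the muscle libraries 7 and 24. Exocrine pancreas markers summed to 47990 to 99700 CPM in the co-housed knockout and 25520 to 49770 CPM in conventional wild type (6 of 12 higher, 1 lower), and liver markers to 10960 to 14520 against 15390 to 26670 CPM (4 of 12 lower). With pancreas and liver scores as covariates, 14 members were higher and 8 lower, with no all-gene share given for this fit. Here sdhc stood at 82, 125, 138 and 157 counts, and ndufb2 (1.14 ± 0.11), ndufaf2 (0.96 ± 0.13) and ndufab1a (0.59 ± 0.10) were higher. The cox7a1 gene changed by 0.00 ± 0.12, which did not pass. Its mean was 41.9 CPM in the co-housed and 54.1 CPM in the conventional knockout, not called with the 5 groups fitted together. This fall was called by edgeR with the 2 groups fitted alone (-0.36 ± 0.08, adjusted p = 0.0499). It was also called without the 3 libraries with muscle transcripts (-0.41 ± 0.1, adjusted p = 0.0261).

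Genes around the complexes were described from lists of the same pathway, beside the 13.2% lower and 12.1% higher of all genes in germ-free wild type and the 13.3% and 14.0% in the germ-free knockout. Of 30 tested assembly factors of complexes II to V, 20 fell in wild type, and 14 fell and 2 rose in the knockout, with medians of -0.35 and -0.28; uqcc1, a complex III assembly factor, changed by -0.56 ± 0.07 and -0.48 ± 0.07, and cox15, which makes haem A for complex IV, by -1.04 ± 0.14 and -0.81 ± 0.14. Among the mobile carriers and other nuclear subunits, 6 and 7 of 14 fell and 1 rose in each genotype. Cytochrome c1 of complex III, cyc1, measured 283, 332, 297 and 279 CPM in conventional and 213, 207, 207 and 201 CPM in germ-free wild type (-0.52 ± 0.06, adjusted p = 1.65e-05), with no overlap, and changed by -0.31 ± 0.06 in the knockout. The cytochrome c gene cycsb changed by -1.17 ± 0.21 and -1.14 ± 0.21. Of 13 regulators of mitochondrial biogenesis, 8 rose and 1 fell in the germ-free knockout, and 4 rose and 3 fell in germ-free wild type. Of them nrf1, a transcription factor of nuclear respiratory genes, rose by 0.26 ± 0.08 and 0.42 ± 0.08, and esrra, an estrogen-related receptor, fell by 1.06 ± 0.21 and 0.72 ± 0.21. The tricarboxylic acid cycle list had 3 of 16 lower in wild type and 2 lower and 1 higher in the knockout, and its median changes were -0.03 and -0.05. Of 64 tested mitochondrial ribosomal protein genes, 16 fell and 3 rose in germ-free wild type, and 2 fell and 2 rose in the knockout. Of 17 tested carrier and uncoupling genes, 4 fell and 0 rose in wild type, and 3 fell and 1 rose in the knockout. Of 7 other complex I assembly factors, 3 fell and 1 rose in wild type, and 1 fell and 1 rose in the knockout.

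Of 30 tested assembly factors of complexes II to V, 2 were higher and 6 lower in the knockout of experiment 1. The counts were 1 and 11 in conventional and 1 and 7 in germ-free larvae. Of all genes, 16.1%, 17.0% and 13.5% were higher and 17.0%, 19.1% and 13.3% lower in these comparisons. Among the factors, cox18 changed by -0.54 ± 0.08, -0.71 ± 0.09 and -0.7 ± 0.09, and cox15 by -0.42 ± 0.13, -0.87 ± 0.14 and -0.64 ± 0.14. Wide knockout changes were seen in 2 further assembly factor genes. The complex IV assembly factor coa3b fell by 2.44 ± 0.23 in experiment 1, 2.18 ± 0.13 in conventional and 1.61 ± 0.13 in germ-free larvae. The complex I assembly gene tmem186 had 0 counts in every wild type library and 0.993 to 1.85 CPM in the conventional and germ-free knockout, at least 59.8-fold higher in conventional and 47.4-fold higher in germ-free larvae, a bound from 3 counts over the group. The 0 counts of tmem186 are likewise not read as absence of expression. The nrf1 level was lower in the knockout by 0.62 ± 0.08 in conventional and 0.46 ± 0.08 in germ-free larvae. In experiment 1 nrf1 stood at 0 CPM in every library, so no change is read there. Of 13 tested biogenesis regulators, 0 were higher and 5 lower in the conventional knockout, and 1 and 1 in the germ-free knockout. In experiment 1, 0 of 12 tested regulators were called. No mitochondrially encoded gene was matched by name among the 26 searched, so those core subunits are not analysed here.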

How the data were processed

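RNA-seq of dissected zebrafish larval guts gave 28 libraries from 2 experiments, sequenced from a stranded mRNA kit, per the labels' protocols, which name FastQC 0.11.8 and the build danRer11. Which aligner, counter, strand option and gene models were used was not given in the sources used here. Per experiment the authors deposited raw counts, the values tested here, and TPM values. Count rows are genes in experiment 2 and RefSeq transcripts in experiment 1, where rows were tested and all-gene shares are over rows. TPM values were normalized by the authors for length and library total and used for levels and 2 alternatives. TPM is missing for 1886 rows of experiment 1, among them uqcrc1, sdhc and ndufs7. Names and overlapping genes came from RefSeq (GRCz12tu); 15776 of 16134 experiment 1 rows matched, and for a symbol with several rows the largest row was used. A further 4 genes of these complexes that carry clone names in experiment 2 (cox5ba, atp5mj, ndufc1 and ndufaf8) are not members. Counts were fitted with edgeR 4.0.16 in R 4.3.3 (TMM, filterByExpr, robust quasi-likelihood F test); the standard error is the absolute log2 fold change over the square root of F. Experiment 1 was fitted alone, the 5 groups of experiment 2 together, and the 2 knockout effects jointly on 16 libraries. Alternatives used DESeq2 1.42.0 and limma 3.58.1 on log2(TPM + 1) or log2(TPM + 0.1), where a fold change understates low genes. The script for the fit was tested on simulated data. No replicate pair agreed within sampling noise. Members and lists were chosen with earlier results of these data known. In each comparison, genes named are up to 2 rises and 2 falls per complex without overlap and with at least 5 CPM in the higher group, the most abundant member per complex, isoform families and paralog pairs, and up to 3 genes per pathway list; others were chosen after their values were seen. The replicate numbers were not treated as pairing the samples, except in the replicate block alternative.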

Additional observations from a re-analysis of the deposited data

Results flagged for a closer look

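Dixon's test at the 95% level was run on 201 groups of 4 libraries, and 6 were flagged; chance flags about 1 in 20 groups. Conventional wild type 1 had 0.227 CPM of sdhc against 0.0378 to 0.0700 in the other 3 libraries. Germ-free wild type 2 had 29.6 CPM of cox7a1 against 43.6 to 44.3, and germ-free wild type 1 had 55.5 CPM of cox7c against 47.5 to 48.7. Co-housed knockout 2 had 106.8 CPM of atp5mc1 against 80.8 to 83.8, and 22.5 CPM of atp5mea against 17.5 to 18.3. Germ-free wild type 4 had a summed TPM of complex I assembly factors of 131.6 against 146.1 to 147.2. Co-housed knockout 2, wild type 1 of the conventional group and wild type 2 of the germ-free group are the libraries with skeletal muscle transcripts.

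By a test of the difference itself, the knockout effect on sdhb differed between germ-free and conventional larvae by 0.43 ± 0.09 on the log2 scale (adjusted p = 0.0324). Between experiment 1 and conventional larvae of experiment 2 it differed by 3.02 ± 0.79 for atp5f1c (adjusted p = 0.0234, not read because experiment 1 holds at most 11 counts of it per library), 0.58 ± 0.11 for cox7a1 (0.00451), 0.31 ± 0.09 for sdhb (0.0386) and 0.37 ± 0.09 for atp5meb (0.017).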

How the results depend on the processing

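Counts of called members were recomputed under each alternative. All-gene shares under the alternatives are not given, so the counts do not show whether a shift was particular to the members. In experiment 1 the 22 became 10 and 9 on log2(TPM + 1) and log2(TPM + 0.1), and 11 with pancreas and liver covariates. Germ-free wild type went from 26 to 45 and 45 on the TPM scales, 4 with the covariates and 12 with the groups fitted alone. For the co-housed against the conventional knockout, 0 became 1 by DESeq2, 1 with at least 1 CPM in 4 libraries, 1 when fitted alone and 4 without the 3 muscle libraries; the co-housed knockout against conventional wild type went from 29 to 17 fitted alone. The 1 interaction call became 0 without a count filter, 0 with covariates and 0 without the muscle libraries. The 4 differences between experiments became 2 with a replicate block and 1 with covariates. With 1 library left out, counts ran from 11 to 31 (experiment 1), 24 to 34 (conventional knockout), 18 to 22 (germ-free knockout against wild type), 18 to 36 and 28 to 42 (germ-free rearing in wild type and knockout), 0 to 3 and 23 to 30 (co-housed against conventional knockout and wild type), 0 to 2 (interaction) and 1 to 5 (between experiments). The causes of these shifts were not tested. On the TPM scale the germ-free knockout had 19 higher and 3 lower, against 17 and 6. Other counts stayed within 1.5 times. The 86 called changes of members picked by size within each complex were refitted. None changed sign in 819 values under other settings (56 lost the call) or 728 with a library left out (77 lost it). These changes were picked as called and, outside the interaction and the difference between experiments, as not overlapping between groups. A kept sign was thus largely set by the choice, and no conclusion is drawn from it. Other genes named were not followed in these refits. With the replicate block 19, 31, 24, 27 and 40 members were called in the 3 knockout and 2 germ-free comparisons. After each gene's group mean was subtracted, same-numbered libraries of different groups correlated at -0.431 to 0.359. The medians of these correlations were -0.02 in experiment 1 and -0.016 in experiment 2. Promoter motif counts were not run.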
